A study of Mus musculus with 9 samples.

Results

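The cytokines and cytokine receptors of bone marrow-derived dendritic cells (BMDCs) were described here as 49 genes picked by symbol from a table of reads per gene with 57238 entries. They comprise 22 ligands, namely interleukins, members of the TNF superfamily, IL-6 type cytokines, colony-stimulating factors and related secreted proteins, and 27 receptor chains. Each of the 49 symbols matched exactly 1 entry. The filter on low counts kept 45 of them, 18 ligands and all 27 receptor chains. Il23a, Il33, Csf3 and Ifnb1 did not pass it and were not tested. The study sequenced RNA from BMDCs of wildtype C57BL/6 mice, grown from bone marrow with GM-CSF at 20 ng/ml for 6 days according to the labels (the methods of the study give a longer culture), with 3 libraries in each of 3 groups. CTR BMDCs were left without exosomes, NE-treated BMDCs were exposed for 24 h to exosomes of normal cells, which the study took from the mouse fibroblast line NIH 3T3, and TDE-treated BMDCs were exposed for the same time to exosomes of tumor cells. The labels do not name the tumor line, and GM-CSF was part of the culture of all 3 groups. The NE group adds exosomes of cells that are not tumor cells. For the cytokine genes the design therefore asks whether TDE-treated BMDCs differed from untreated BMDCs and from NE-treated BMDCs. The exosomes of the NE and TDE groups also came from different cell lines, which cannot be told apart from tumor origin.

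Dendritic cells steer T cells through the cytokines they secrete, and receptors for cytokines set how the dendritic cells themselves grow, mature and survive. IL-1, IL-6 and TNF are produced when innate receptors activate NF-kB and MAP kinases, IL-12 and its relatives direct T cell polarization, and IL-10 restrains inflammation. Most interleukin, interferon and colony-stimulating factor receptors signal through JAK kinases and STAT proteins, whereas the IL-1 and TNF receptor families signal through adaptor proteins to NF-kB. GM-CSF cultures of bone marrow are known to hold granulocytes and macrophage-like cells beside dendritic cells, so a level in such a culture is an average over cell types.

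Levels are given as CPM (reads on a gene relative to the reads of the library, in parts per 10 to the power 6), with library sizes scaled by TMM, and always in the order of replicates 1, 2 and 3 of a group. The libraries held between 17469782 and 21092943 estimated reads on genes, so that 3 reads, taken here as the floor of detection, corresponded to 0.142 to 0.172 CPM before TMM scaling. CTR replicate 1 stood apart. Its mean correlation with the other CTR libraries was 0.87, against a lowest value of 0.941 among all pairs of the other 8 libraries, and its levels relative to CTR replicates 2 and 3 fell with gene length (Spearman's rho -0.50 across 15028 genes, a description across genes). Among the members tested, the median log2 ratio of this library to the other CTR libraries was 0.31 for 16 ligands and -0.39 for 26 receptor chains. Il10, Il12a and Il12rb2 were left out because they had 0 reads in this library. Results are therefore given with and without it. Of the dendritic cell markers, Itgax, Cd74, H2-Aa and H2-Ab1 were expressed in every library, while Cd209a had at most 3 reads in any. Between TDE and CTR, 3 of the 9 dendritic cell markers tested were lower (Cd74, H2-Aa and H2-Ab1), as were 7 of 9 neutrophil, 4 of 4 eosinophil and 4 of 4 mast cell and basophil markers, while 1 of 8 macrophage markers was higher (Adgre1) and 2 were lower. When CTR replicate 1 was left out, the counts were 1 higher and 6 lower of 9 dendritic cell markers, 9 lower of 9 neutrophil markers and 2 higher and 5 lower of 8 macrophage markers, and the eosinophil, mast cell and basophil markers were again all lower. The summed level of the 10 dendritic cell markers was 3802 to 12030 CPM in CTR, 3626 to 4538 CPM in NE and 1959 to 2062 CPM in TDE libraries, that of the 9 neutrophil markers 7002 to 28024 CPM, 7381 to 10644 CPM and 3068 to 3362 CPM, and that of the 8 macrophage markers 2291 to 3794 CPM, 2379 to 2475 CPM and 3651 to 3914 CPM. Without Adgre1 the other 7 macrophage markers summed to 1811 to 3588 CPM in CTR, 1893 to 2070 CPM in NE and 1537 to 1602 CPM in TDE libraries, so that the higher sum in TDE libraries was that of Adgre1 alone. In each library the summed markers of T cells, NK cells and fibroblasts were at most 6.97, 0.82 and 5.67 CPM, those of epithelial cells at most 12.6 CPM and those of B cells at most 68.6 CPM. The highest CTR sum of the dendritic cell, neutrophil and macrophage markers was that of CTR replicate 1. The part of these markers in the results that follow was not tested. Fewer cells of a type and less RNA per cell cannot be told apart in such bulk samples.

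TDE-treated BMDCs differed from CTR in 19 of the 45 members tested. Of the 18 ligands, 9 rose (Il1a, Il1b, Il1rn, Il6, Il10, Il12a, Il12b, Lif and Osm) and 2 fell (Tnfsf13b and Csf1). Among those that rose, Il10 and Il12a were kept by the filter on low counts only through their TDE libraries. Of the 27 receptor chains, 5 rose (Il1r1, Il4ra, Il13ra1, Ifnar2 and Tnfrsf1b) and 3 fell (Il7r, Csf2ra and Csf2rb2). The test was edgeR's quasi-likelihood F test with Benjamini-Hochberg adjustment over all 15028 genes tested and a threshold of 0.05, and in the same comparison 7.57% of all genes were higher and 9.34% lower. Against NE, 21 members differed, with 11 ligands higher (the 9 above, Ebi3 and Tnf), 1 ligand lower (Csf1), 4 receptor chains higher (Il1r1, Il4ra, Ifnar2 and Tnfrsf1b) and 5 lower (Il7r, Il17ra, Il18rap, Csf2ra and Csf2rb2), where 6.73% of all genes were higher and 7.21% lower. The median log2 fold change against CTR was 0.76 for ligands and 0.17 for receptor chains, beside -0.05 for all tested genes, and against NE it was 0.96 and 0.13, beside -0.02. Both comparisons use the same TDE libraries, so that they are not independent. No source used here states that the libraries of a group came from separate cultures or mice, and the p-values then measure only the spread between these libraries, which may be technical. Of the calls, 13 of 19 against CTR and 10 of 21 against NE passed the threshold in every alternative fit that tested them, and none changed sign. The number of receptor chains called against CTR was 16 without CTR replicate 1, where 34.4% of all genes were called, and 4 without CTR replicate 2, NE replicate 1, NE replicate 2 or any TDE library, where 7.15% to 12.6% were. Against NE it was 17 without CTR replicate 1, where 40.7% of all genes were called, and 3 without NE replicate 1, NE replicate 2 or any TDE library, where 6.29% to 7.35% were. In these settings the share called over all genes moved in the same direction as the number of receptor chains. Without CTR replicate 3 it did not. Against CTR, 25.6% of all genes were then called, more than the 16.9% with all libraries, and 6 receptor chains, fewer than the 8 above.

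**Figure D1:**
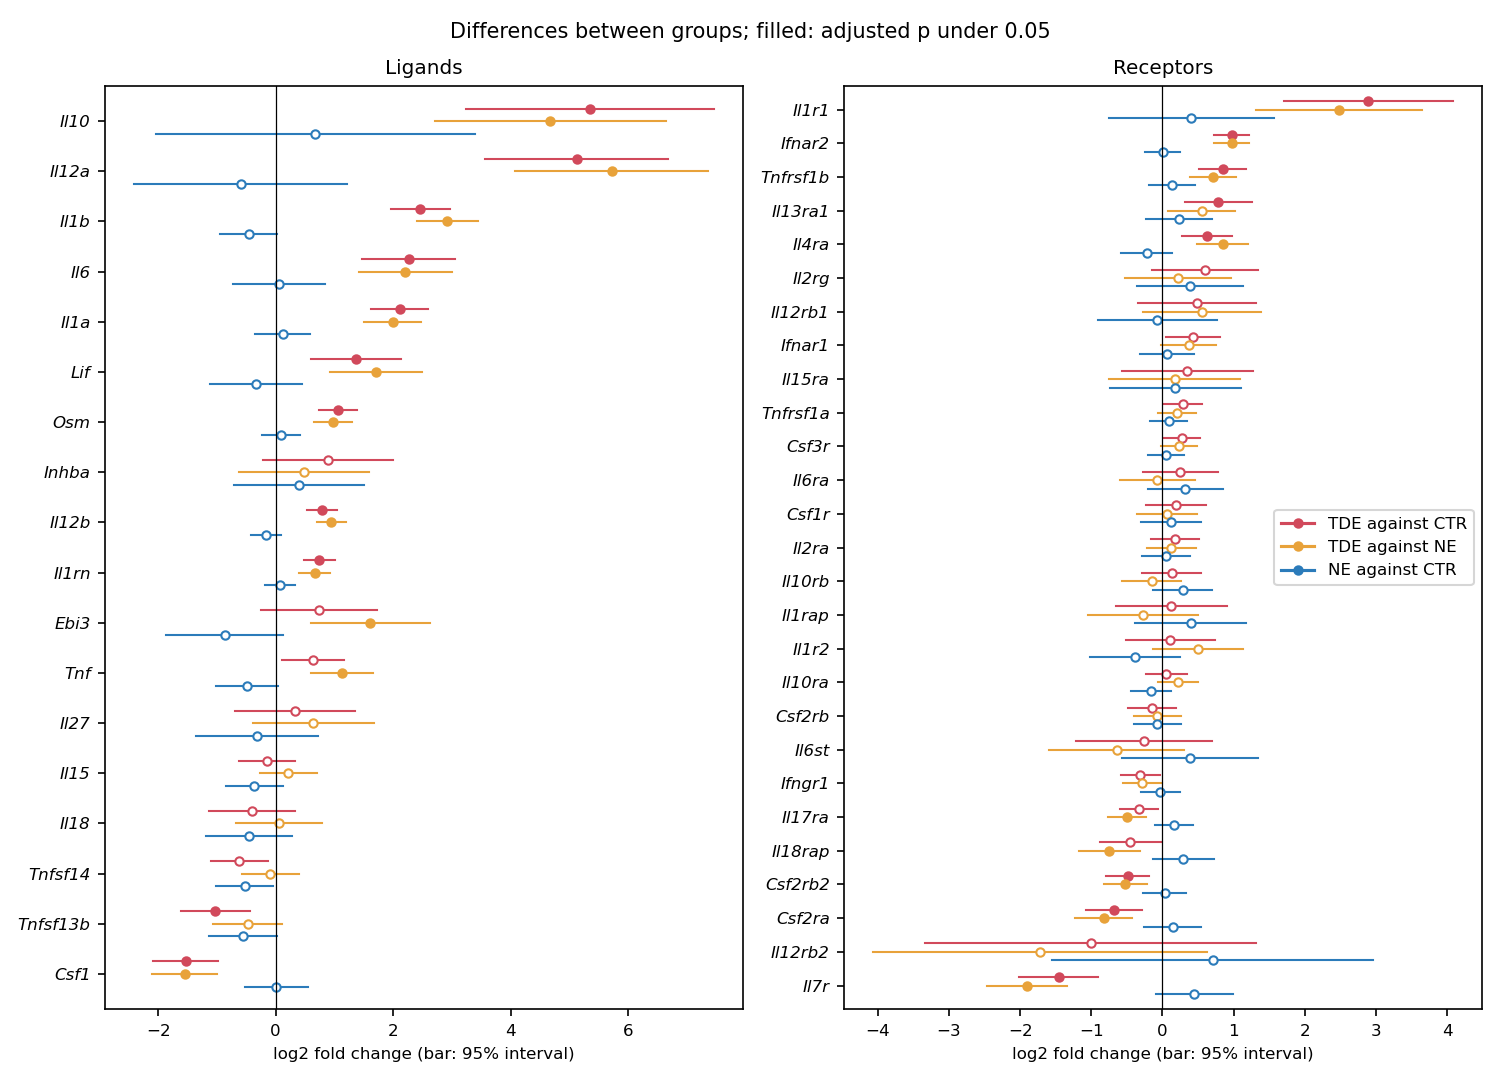
Log2 fold changes of the 18 ligands (left) and 27 receptor chains (right) that were tested, one line per gene. Points give the fitted difference of TDE against CTR (red), TDE against NE (orange) and NE against CTR (blue), bars its 95% interval, and filled points an adjusted p under 0.05. Il10, Il12a, Il1b and Il6 lie farthest to the right among the ligands, Il1r1 among the receptor chains, and all blue points are open.

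Promoters of 7 of these genes are shown, chosen because they belong to members with large differences and because their windows hold motifs of transcription factors known to act on cytokine genes. Each is the 250 bases before the annotated start of the gene, read on the strand of the gene from RefSeq (GRCm38.p6), and capitals mark matches to motif letters on either strand. The letters searched were GGANNTTCC for NF-kB, TGANTCA for AP-1, TTGCNNAA for C/EBP and GAGGAA for PU.1, where N is any base. None of the marked matches overlaps another. The windows lie at chr5:30012864-30013113 on the plus strand (Il6), chr3:68690394-68690643 on the plus strand (Il12a), chr2:129309973-129310222 on the minus strand (Il1a), chr11:4257318-4257567 on the plus strand (Lif), chr1:40224830-40225079 on the plus strand (Il1r1), chr3:107760470-107760719 on the minus strand (Csf1) and chr15:9529877-9530126 on the minus strand (Il7r). Il12a and Il1r1 each have a further annotated start whose window held none of the motifs.
Il6: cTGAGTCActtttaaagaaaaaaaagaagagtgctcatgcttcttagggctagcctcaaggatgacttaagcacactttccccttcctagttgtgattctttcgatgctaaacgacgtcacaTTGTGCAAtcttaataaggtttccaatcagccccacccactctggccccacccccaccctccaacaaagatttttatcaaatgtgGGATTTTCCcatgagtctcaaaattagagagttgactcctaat
Il12a: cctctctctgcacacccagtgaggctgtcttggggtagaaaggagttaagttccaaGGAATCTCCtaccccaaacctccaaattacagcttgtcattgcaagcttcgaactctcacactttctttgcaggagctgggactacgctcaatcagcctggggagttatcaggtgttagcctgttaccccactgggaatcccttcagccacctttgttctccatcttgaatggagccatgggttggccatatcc
Il1a: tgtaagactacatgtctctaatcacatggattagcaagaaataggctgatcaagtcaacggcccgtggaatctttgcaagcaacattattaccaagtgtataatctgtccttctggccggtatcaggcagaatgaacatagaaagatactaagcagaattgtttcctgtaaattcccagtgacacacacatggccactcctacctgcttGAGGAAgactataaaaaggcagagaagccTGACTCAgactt
Lif: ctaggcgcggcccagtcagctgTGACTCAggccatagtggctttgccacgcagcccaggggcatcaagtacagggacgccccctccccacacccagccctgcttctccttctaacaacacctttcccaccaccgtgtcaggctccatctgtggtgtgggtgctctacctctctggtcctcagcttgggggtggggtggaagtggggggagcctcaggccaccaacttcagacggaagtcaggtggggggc
Il1r1: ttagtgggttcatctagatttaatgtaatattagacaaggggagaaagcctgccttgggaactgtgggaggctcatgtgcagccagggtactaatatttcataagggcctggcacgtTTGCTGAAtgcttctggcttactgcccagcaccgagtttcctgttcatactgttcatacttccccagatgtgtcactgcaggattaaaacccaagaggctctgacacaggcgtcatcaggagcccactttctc
Csf1: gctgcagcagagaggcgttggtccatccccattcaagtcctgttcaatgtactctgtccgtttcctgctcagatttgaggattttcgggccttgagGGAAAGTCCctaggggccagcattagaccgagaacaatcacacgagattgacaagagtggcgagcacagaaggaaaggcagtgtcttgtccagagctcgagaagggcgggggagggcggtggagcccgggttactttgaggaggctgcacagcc
Il7r: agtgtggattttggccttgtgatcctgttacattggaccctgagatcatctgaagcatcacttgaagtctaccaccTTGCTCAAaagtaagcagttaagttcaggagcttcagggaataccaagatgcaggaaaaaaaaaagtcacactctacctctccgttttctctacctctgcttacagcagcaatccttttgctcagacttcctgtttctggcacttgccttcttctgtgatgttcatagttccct
In the Il6 window the AP-1 match began 249 bases, the C/EBP match 128 bases and the NF-kB match 43 bases before the start. The single NF-kB match began 194 bases before the start of Il12a and 154 bases before that of Csf1. In the Il1a window the PU.1 letters began at 41 bases and the AP-1 letters at 12 bases before the start, and in the Lif window an AP-1 match lay at 228 bases. The C/EBP matches began 133 bases before the start of Il1r1 and 174 bases before that of Il7r. A window was found for 37 of the 49 members, and the NF-kB letters occurred in 8 of them, the AP-1 letters in 7, the C/EBP letters in 5 and the PU.1 letters in 14. Among all 27025 genes with a window, 4.12% held the NF-kB letters, 7.82% the AP-1 letters, 10.8% the C/EBP letters and 25.9% the PU.1 letters. Of the 12 members with a window that rose against CTR, 2 held the NF-kB, 4 the AP-1, 2 the C/EBP and 3 the PU.1 letters, and of the 5 that fell, 1, 1, 1 and 2 did. The window of Il1b held no match. A match to letters describes the sequence and does not show that a factor binds there.

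The IL-1 family ligands included Il1b, the most abundant per gene length of the 22 ligands described here. Il1b, which encodes the secreted pyrogenic cytokine IL-1 beta, measured 213, 142 and 127 CPM in CTR, 105, 109 and 136 CPM in NE and 886, 875 and 888 CPM in TDE libraries. All TDE libraries lay far above all others, and the log2 fold change was 2.46 ± 0.22 (SE) against CTR (adjusted p = 0.00038) and 2.92 ± 0.23 against NE (adjusted p = 0.00017). Il1a, which encodes the largely cell-associated IL-1 alpha, measured 8.56, 12.9 and 13.7 CPM in CTR, 13.7, 13.4 and 11.1 CPM in NE and 56.5, 42.9 and 52.6 CPM in TDE libraries. Its TDE libraries did not overlap with the others either, and it rose by 2.11 ± 0.21 against CTR (adjusted p = 0.00062) and by 1.99 ± 0.21 against NE (adjusted p = 0.00071) on the log2 scale. Il1rn, which encodes the IL-1 receptor antagonist, moved less, from 110, 119 and 115 CPM in CTR and 123, 119 and 121 CPM in NE to 205, 178 and 192 CPM in TDE libraries. The difference of 0.74 ± 0.11 against CTR (adjusted p = 0.0044) and 0.66 ± 0.11 against NE (adjusted p = 0.0067) nevertheless left the groups without overlap, although against NE it lost its call when library totals alone were used for scaling (adjusted p = 0.0772). For Il18, another member of the family, the log2 fold change of -0.40 against CTR (adjusted p = 0.39) and 0.05 against NE (adjusted p = 0.96) did not pass the test. Exons of Il1b overlap an antisense transcript, Il1bos, and those of Il1a overlap Gm14023 on the opposite strand. Whether reads were counted by strand is not given in the sources used here.

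The IL-12 family is built from paired subunits, and the genes of both IL-12 subunits rose. Il12a encodes the p35 subunit of IL-12, which is secreted as active IL-12 only when paired with the p40 subunit encoded by Il12b. Il12a had 0, 10 and 9 reads in CTR, 2, 3 and 7 reads in NE and 218, 177 and 230 reads in TDE libraries, that is 0, 0.452 and 0.454 CPM, 0.106, 0.163 and 0.348 CPM, and 12.1, 9.66 and 12 CPM. The gene was thus close to the floor in CTR and NE and well above it in every TDE library, with a log2 fold change of 5.12 ± 0.68 against CTR (adjusted p = 0.0023) and 5.71 ± 0.72 against NE (adjusted p = 0.0015). Without CTR replicate 1 the log2 fold change against CTR was 4.61 (adjusted p = 7.3e-06). Il12a passed the filter on low counts only through its TDE libraries, so these p-values are not independent of its selection. Il12b was abundant in all groups, with 117, 116 and 115 CPM in CTR, 101, 105 and 106 CPM in NE and 191, 215 and 196 CPM in TDE libraries. The rise of Il12b by 0.79 ± 0.11 against CTR (adjusted p = 0.0028) and 0.95 ± 0.11 against NE (adjusted p = 0.0011) on the log2 scale was smaller in size than that of Il12a, although the difference between the genes was not tested. Il23a, the p19 subunit that pairs with p40 to form IL-23, had at most 1 read in any library and gave no fold change.

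Ebi3 and Il27 encode the subunits of IL-27. Ebi3 measured 127, 40.6 and 36.4 CPM in CTR, 35.2, 33.6 and 42.9 CPM in NE and 112, 115 and 113 CPM in TDE libraries. CTR replicate 1 exceeded the TDE libraries, whereas the other CTR libraries and all NE libraries were far below them. The difference was therefore called against NE (log2 fold change 1.61 ± 0.44, adjusted p = 0.046) and not against CTR (0.74 ± 0.43, adjusted p = 0.25). Without CTR replicate 1 it was 1.55 against CTR (adjusted p = 1.8e-05). The call against NE was lost when any NE or TDE library was left out, with an adjusted p of 0.112 to 0.153. Il27, at 4.44, 1.9 and 1.21 CPM in CTR, 1.7, 2.22 and 2.09 CPM in NE and 3.66, 3.38 and 2.35 CPM in TDE libraries, overlapped between TDE and CTR (log2 fold change 0.33, adjusted p = 0.61). Exons of Ebi3 and Il27 overlap Gm16712 and Apobr, respectively, on the opposite strand.

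Il6, Lif and Osm encode ligands whose receptors share the gp130 chain, and all 3 rose. Il6 measured 1.2, 3.43 and 2.52 CPM in CTR, 2.18, 2.22 and 3.08 CPM in NE and 10.8, 12.1 and 11.8 CPM in TDE libraries, without overlap. Its log2 fold change was 2.26 ± 0.35 against CTR (adjusted p = 0.0042) and 2.21 ± 0.35 against NE (adjusted p = 0.0043). Without CTR replicate 1, the lowest library, it was 1.94 against CTR (adjusted p = 9.8e-05). Osm, which encodes oncostatin M, measured 9.63, 12.6 and 10.6 CPM in CTR, 11, 11.3 and 12.5 CPM in NE and 24, 21.9 and 22.5 CPM in TDE libraries. It rose by 1.06 ± 0.14 against CTR (adjusted p = 0.0023) and by 0.97 ± 0.14 against NE (adjusted p = 0.0032) on the log2 scale. Lif, which encodes leukemia inhibitory factor, stood at 1.08, 1.85 and 1.97 CPM in CTR, 1.11, 1.84 and 0.945 CPM in NE and 3.93, 3.77 and 5.02 CPM in TDE libraries. The TDE libraries again lay above all others, with a log2 fold change of 1.37 ± 0.34 against CTR (adjusted p = 0.028) and 1.70 ± 0.34 against NE (adjusted p = 0.013). The Lif call against CTR was lost without CTR replicate 2, NE replicate 1 or any TDE library (adjusted p 0.0517 to 0.115), and that against NE without NE replicate 1, NE replicate 3 or TDE replicate 3 (0.0519 to 0.0662).

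Il10, the gene of the anti-inflammatory cytokine IL-10, exceeded the floor of 3 reads only in TDE libraries. It had 0, 0 and 3 reads in CTR, 0, 2 and 3 reads in NE and 42, 37 and 53 reads in TDE libraries. The mean of 2.37 ± 0.38 CPM (SD, n = 3) in TDE libraries was at least 14.9-fold higher than in CTR and at least 15.1-fold higher than in NE libraries, taking the mean floor of 3 reads per library as the level of those groups. The edgeR test gave an adjusted p of 0.0066 against CTR and 0.0091 against NE, and the exact permutation test on the 6 libraries gave p = 0.1 in both cases, the smallest that 3 against 3 libraries allow. Il10 passed the filter on low counts only through its TDE libraries, so the edgeR p-values are not independent of its selection. The call against NE was lost without NE replicate 2 (adjusted p = 0.0531). Among the other cytokines that were not tested, Il33 had at most 3 reads in any library, Csf3 at most 5 and Ifnb1 at most 1, so changes in these genes were not detectable at this depth.

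Of the TNF family ligands, with all 9 libraries, Tnf was called higher against NE only and Tnfsf13b lower against CTR only. Tnf measured 19, 11.4 and 10.2 CPM in CTR, 9.5, 8.84 and 10.4 CPM in NE and 20.4, 21.4 and 21.1 CPM in TDE libraries. Only CTR replicate 1 came near the TDE libraries, and the log2 fold change of Tnf was 1.13 ± 0.23 against NE (adjusted p = 0.014) and 0.64 ± 0.23 against CTR (adjusted p = 0.092), or 0.95 without CTR replicate 1 (adjusted p = 0.00017). The call against NE was lost without NE replicate 1, NE replicate 2 or any TDE library, with an adjusted p of 0.0516 to 0.0671. Tnfsf13b, which encodes the B cell survival factor BAFF, measured 9.57, 5.96 and 5.25 CPM in CTR, 4.94, 4.34 and 4.87 CPM in NE and 3.38, 3.93 and 2.87 CPM in TDE libraries. The TDE libraries were the lowest, and Tnfsf13b fell by 1.02 ± 0.26 on the log2 scale against CTR (adjusted p = 0.030). Against NE the difference was -0.47 ± 0.26 (adjusted p = 0.30). Without CTR replicate 1 the differences were -0.73 from CTR (adjusted p = 0.01) and -0.48 from NE (adjusted p = 0.037). The call against CTR was lost when any NE or TDE library was left out (adjusted p 0.0525 to 0.124). Tnfsf14, which encodes the costimulatory ligand LIGHT, had values of 19.8, 13.6 and 12.6 CPM in CTR and 8.65, 12 and 9.35 CPM in TDE libraries, and its difference of -0.62 against CTR did not pass (adjusted p = 0.083).

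Csf1 was the ligand with the largest fall. It encodes M-CSF, the growth factor of the macrophage lineage, and measured 8.75, 12.3 and 10.1 CPM in CTR, 11.7, 11 and 8.8 CPM in NE and 2.55, 4.2 and 4.02 CPM in TDE libraries. No TDE library reached the level of any other, and the log2 fold change was -1.53 ± 0.24 against CTR (adjusted p = 0.0047) and -1.54 ± 0.24 against NE (adjusted p = 0.0043). Its receptor gene, Csf1r, was the most abundant per gene length of the 27 receptor chains described here. It did not pass the test, with a log2 fold change of 0.18 against CTR (adjusted p = 0.49) and 0.06 against NE (adjusted p = 0.91). The 95% interval of the difference from CTR ran from -0.24 to 0.61. Inhba, the activin A subunit, measured 1.84, 8.71 and 9.48 CPM in CTR, 9.18, 8.3 and 9.15 CPM in NE and 14.9, 11.1 and 11.2 CPM in TDE libraries. The TDE libraries were the highest, but the log2 fold change of 0.89 ± 0.48 against CTR did not pass (adjusted p = 0.22), and it was 0.44 (adjusted p = 0.047) without CTR replicate 1. Il15, which supports natural killer and memory T cells, overlapped between the groups, with a log2 fold change of -0.15 against CTR (adjusted p = 0.63).

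**Figure D2:**
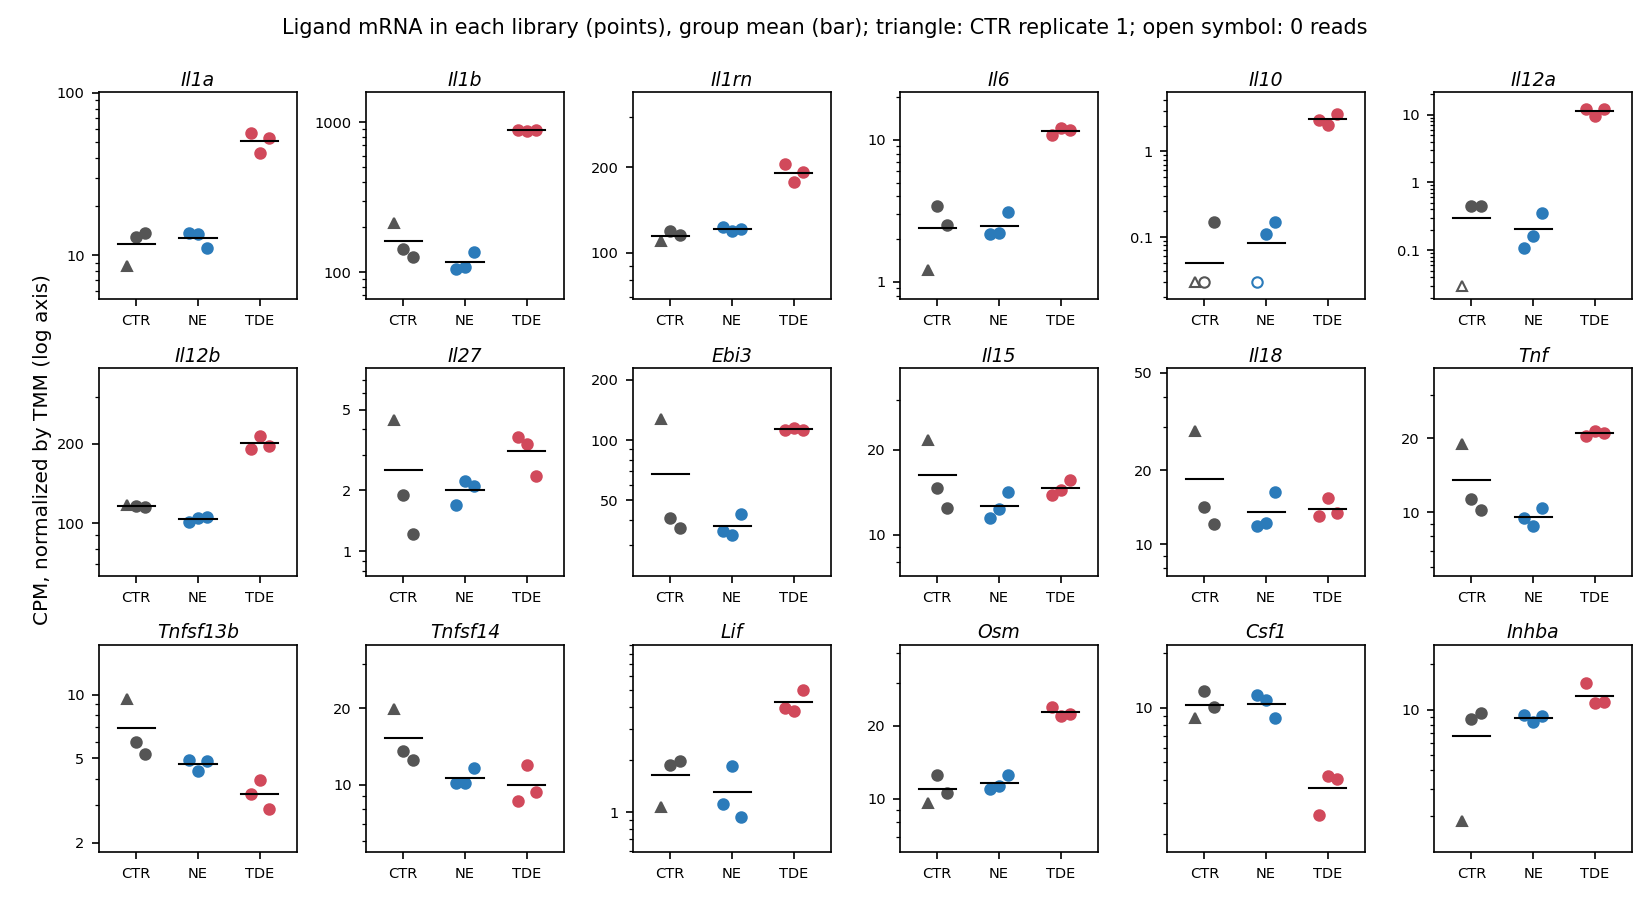
CPM of the 18 tested ligands in each library on log axes whose range differs between panels. Points are libraries, bars group means, triangles CTR replicate 1 and open symbols 0 reads, drawn at the bottom of the panel. TDE libraries stand above the rest for Il1a, Il1b, Il1rn, Il6, Il10, Il12a, Il12b, Tnf, Lif, Osm and Inhba. They stand below the rest for Csf1 and Tnfsf13b. The triangle leaves the other CTR points in Ebi3, Il27, Il18, Tnf, Il6 and Inhba, among others.

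Among the receptor chains called, Il1r1 had the largest rise. Il1r1, which encodes the signaling IL-1 receptor, measured 0.507, 2.75 and 3.43 CPM in CTR, 3.34, 2.6 and 3.03 CPM in NE and 16, 17 and 17.4 CPM in TDE libraries. All TDE libraries lay above the others, and the log2 fold change was 2.89 ± 0.52 against CTR (adjusted p = 0.0079) and 2.49 ± 0.51 against NE (adjusted p = 0.014). CTR replicate 1 was the lowest library, and across the alternative fits the log2 fold change against CTR ranged from 2.43 to 3.32. The call against NE was lost when any NE or TDE library was left out (adjusted p 0.0519 to 0.0742) and was kept without CTR replicate 1 (adjusted p = 1.8e-06). Il1r2, the decoy receptor that binds IL-1 without signaling, overlapped between TDE and CTR at 28.5, 15.9 and 13.3 CPM in CTR, 12.7, 14.3 and 17.1 CPM in NE and 20.2, 22.6 and 19.4 CPM in TDE libraries. Its log2 fold change was 0.11 against CTR (adjusted p = 0.78) and 0.49 against CTR without replicate 1 (adjusted p = 0.027). The accessory chain that IL-1 receptors share, Il1rap, differed from CTR by 0.12 on the log2 scale (adjusted p = 0.81). Il18rap, the accessory chain of the IL-18 receptor, measured 38.9, 47.6 and 53.2 CPM in CTR, 65.2, 62.5 and 43.8 CPM in NE and 32, 37.2 and 33.1 CPM in TDE libraries. It fell against NE (log2 fold change -0.75 ± 0.19, adjusted p = 0.034) and the difference of -0.45 ± 0.19 from CTR did not pass (adjusted p = 0.13). The Il18rap call was lost without CTR replicate 2, NE replicates 1 or 2 or any TDE library (adjusted p 0.0585 to 0.144).

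Il7r, which encodes the IL-7 receptor alpha chain, had the largest fall among the receptor chains called. It measured 51, 96.9 and 99.6 CPM in CTR, 114, 116 and 108 CPM in NE and 32.8, 29 and 28.6 CPM in TDE libraries. The TDE libraries did not overlap with the others, including the low CTR replicate 1, and the log2 fold change was -1.45 ± 0.24 against CTR (adjusted p = 0.0059) and -1.90 ± 0.25 against NE (adjusted p = 0.0018). Il2rg, the common gamma chain with which Il7r pairs, measured 59.9, 164 and 153 CPM in CTR, 160, 154 and 177 CPM in NE and 199, 177 and 194 CPM in TDE libraries, and its log2 fold change against CTR was 0.60 with an adjusted p of 0.22. Il4ra and Il13ra1 together form a receptor for IL-4 and IL-13. Il4ra measured 239, 174 and 178 CPM in CTR, 173, 178 and 156 CPM in NE and 297, 302 and 312 CPM in TDE libraries and rose by 0.62 ± 0.15 against CTR (adjusted p = 0.029) and by 0.85 ± 0.16 against NE (adjusted p = 0.009). Il13ra1 measured 26, 44.1 and 45.2 CPM in CTR, 46.2, 47.5 and 41.7 CPM in NE and 63.2, 65.9 and 69 CPM in TDE libraries. The TDE libraries of both genes were the highest, but the difference for Il13ra1 was called against CTR only (0.78 ± 0.21, adjusted p = 0.036), and that from NE was 0.55 ± 0.20 (adjusted p = 0.12). Without CTR replicate 1 it was 0.54 against NE (adjusted p = 0.00055). Against CTR, the Il4ra call was lost without CTR replicate 2, NE replicate 1, NE replicate 2 or any TDE library (adjusted p 0.055 to 0.108) and the Il13ra1 call without CTR replicate 2 or any NE or TDE library (0.0509 to 0.125).

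The receptor for GM-CSF, the factor in which the cells were grown, is made of an alpha chain and a common beta chain. Csf2ra, the alpha chain, measured 286, 447 and 411 CPM in CTR, 430, 410 and 423 CPM in NE and 241, 233 and 238 CPM in TDE libraries. All TDE libraries were below all others, and the log2 fold change was -0.68 ± 0.17 against CTR (adjusted p = 0.032) and -0.83 ± 0.17 against NE (adjusted p = 0.016). Csf2rb, the common beta chain, overlapped at 956.4, 790.4 and 873.5 CPM in CTR, 884.4, 894.8 and 712.8 CPM in NE and 797.4, 771.4 and 802.4 CPM in TDE libraries, and its log2 fold change was -0.14 against CTR (adjusted p = 0.50) and -0.07 against NE (adjusted p = 0.85), with 95% intervals from -0.48 to 0.19 and from -0.41 to 0.26. Csf2rb2, the mouse IL-3 receptor beta chain, measured 547.5, 527 and 570.1 CPM in CTR, 598.4, 595.4 and 489 CPM in NE and 387.3, 380.1 and 405 CPM in TDE libraries. It fell by 0.49 ± 0.13 against CTR (adjusted p = 0.040) and by 0.52 ± 0.13 against NE (adjusted p = 0.034) on the log2 scale. Csf2rb and Csf2rb2 are closely related neighbours that share 892 windows of 50 bases, 12.3% of those of Csf2rb and 18.4% of those of Csf2rb2, so reads from these stretches could be assigned to either gene. The calls for Csf2ra and Csf2rb2 were lost when any TDE library or NE replicate 1 or 2 was left out, among others, with an adjusted p between 0.0515 and 0.153 against CTR and between 0.0536 and 0.148 against NE. Csf3r, the G-CSF receptor gene, measured 180 to 194 CPM in CTR, 182 to 198 CPM in NE and 222 to 229 CPM in TDE libraries, and its log2 fold change of 0.27 against CTR did not pass (adjusted p = 0.12). The summed levels of 4 eosinophil markers (437 to 1371 CPM in CTR, 453 to 523 CPM in NE, 100.2 to 125 CPM in TDE libraries) and of 4 mast cell and basophil markers (66.6 to 227 CPM, 75 to 105 CPM and 13.1 to 14.4 CPM) were lower in TDE libraries, beside the neutrophil markers above.

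The genes of a type I interferon receptor chain and of a TNF receptor rose. Ifnar2 measured 153, 152 and 149 CPM in CTR, 152, 157 and 146 CPM in NE and 299, 305 and 287 CPM in TDE libraries. The CTR and NE libraries, CTR replicate 1 included, were nearly level, and Ifnar2 rose by 0.97 ± 0.11 on the log2 scale against CTR (adjusted p = 0.001) and against NE (adjusted p = 0.00097). Its partner Ifnar1, at 166, 182 and 211 CPM in CTR, 218, 211 and 154 CPM in NE and 259, 244 and 250 CPM in TDE libraries, was also highest in the TDE libraries, but its log2 fold change of 0.43 ± 0.17 against CTR did not pass (adjusted p = 0.11). Ifnar2 shares exons with the read-through gene Gm21970 on the same strand, as does the neighbouring Il10rb, whose log2 fold change was 0.13 (adjusted p = 0.61). Tnfrsf1b, which encodes TNF receptor 2, measured 834.4, 977.2 and 1052 CPM in CTR, 1093, 1086 and 964.8 CPM in NE and 1760.3, 1630 and 1762 CPM in TDE libraries. Its rise of 0.85 ± 0.14 against CTR (adjusted p = 0.0063) and 0.71 ± 0.14 against NE (adjusted p = 0.013) left the groups without overlap, although the call against NE was lost without NE replicate 1, NE replicate 2 or any TDE library (adjusted p 0.0503 to 0.0684). For Tnfrsf1a, the TNF receptor that holds a death domain, the difference from CTR was 0.29 ± 0.11 on the log2 scale (adjusted p = 0.12). Ifngr1, the ligand-binding chain of the interferon gamma receptor, had 473 to 529 CPM in CTR, 473 to 507 CPM in NE and 392 to 415 CPM in TDE libraries and a log2 fold change of -0.31 against CTR that did not pass (adjusted p = 0.11). Il17ra, the IL-17 receptor chain, fell against NE, from 107, 109 and 113 CPM to 75.3, 81.1 and 77.1 CPM (-0.50 ± 0.12, adjusted p = 0.025). With 88.3, 105 and 101 CPM in CTR its difference there was -0.34 ± 0.12 (adjusted p = 0.084), and the call against NE was lost when any NE or TDE library was left out (adjusted p 0.0825 to 0.131).

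**Figure D3:**
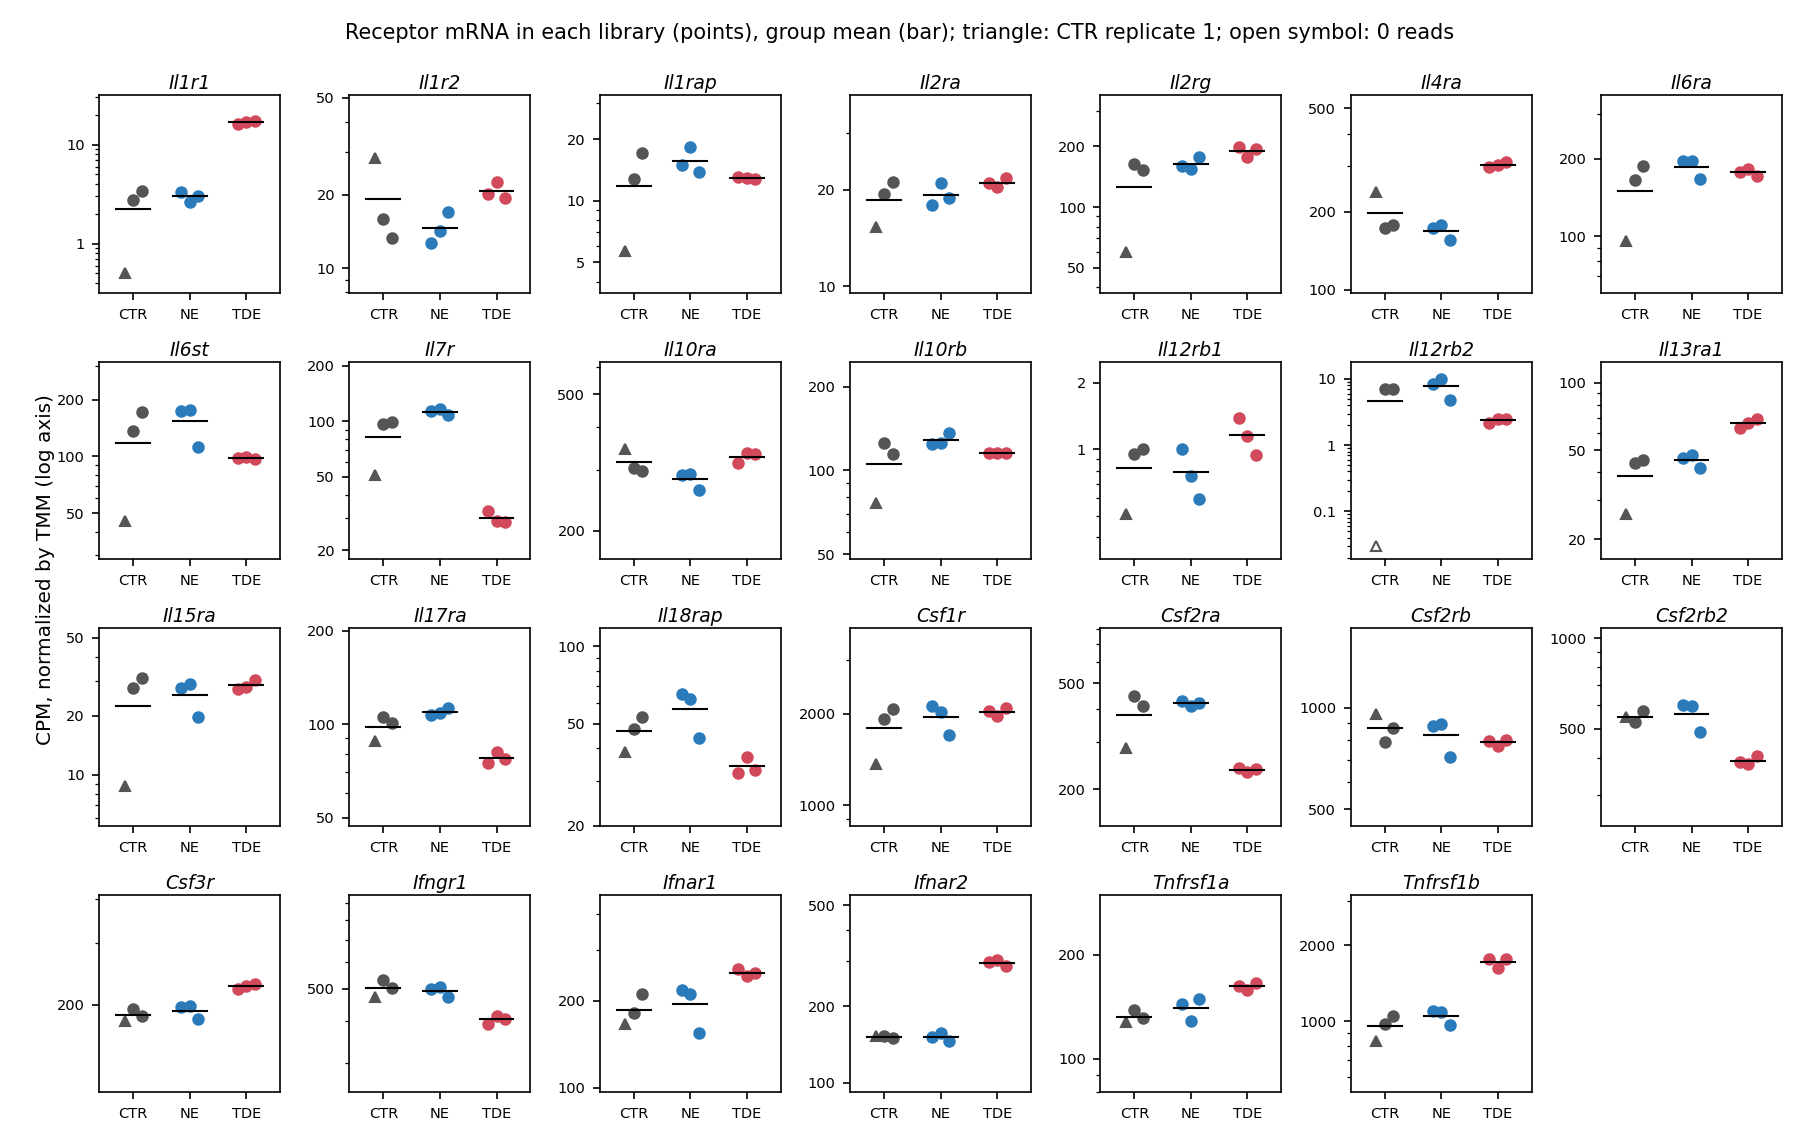
CPM of the 27 receptor chains in each library on log axes whose range differs between panels. Points are libraries, bars group means, triangles CTR replicate 1 and the open symbol 0 reads. TDE libraries are set apart upwards for Il1r1, Il4ra, Il13ra1, Csf3r, Ifnar1, Ifnar2, Tnfrsf1a and Tnfrsf1b. They are set apart downwards for Il7r, Il17ra, Il18rap, Csf2ra, Csf2rb2 and Ifngr1. The triangle lies far below the other CTR points for Il1r1, Il1rap, Il12rb2, Il2rg, Il6st and Il15ra.

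The remaining receptor chains were not called in either comparison. They include the gp130 chain Il6st, with 45.6, 136 and 172 CPM in CTR, 173, 176 and 113 CPM in NE and 98.1, 99.6 and 97.4 CPM in TDE libraries, and Il6ra, the IL-6 binding chain, with a log2 fold change of 0.25 against CTR (adjusted p = 0.45). The log2 fold change of Il6st against CTR was -0.26 (adjusted p = 0.67) with all libraries and -0.65 (adjusted p = 0.022) without CTR replicate 1. Il12rb2, a chain of the IL-12 receptor, had 0 reads in CTR replicate 1 but 7.04 and 7.11 CPM in the other CTR libraries, 8.39, 10.1 and 4.87 CPM in NE and 2.16, 2.46 and 2.46 CPM in TDE libraries. Its log2 fold change of -1.01 ± 1.01 against CTR (adjusted p = 0.49) became -1.59 (adjusted p = 0.0023) without that library, and its exons overlap those of Serbp1 on the opposite strand. Il10ra, the IL-10 binding chain, overlapped between the groups, with 346, 305 and 299 CPM in CTR and 315, 338 and 334 CPM in TDE libraries (log2 fold change 0.05, 95% interval -0.23 to 0.34). Il2ra, Il12rb1 and Il15ra, which encode chains for IL-2, IL-12 and IL-15, had log2 fold changes of 0.17, 0.48 and 0.35 against CTR, with adjusted p-values of 0.42, 0.36 and 0.55.

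Leaving out CTR replicate 1 changed the number of calls more than the direction of the members. TDE against CTR then gave 13 ligands higher and 2 lower and 8 receptor chains higher and 8 lower, where 16.4% of all tested genes were higher and 18.0% lower. TDE against NE then gave 12 ligands higher and 2 lower and 9 receptor chains higher and 8 lower, where 19.2% of all tested genes were higher and 21.5% lower, although the 6 libraries of that comparison were the same as before, since the excluded library enters it only through the filter, the scaling and the estimate of the spread. Ligands called against CTR only then were Ebi3, Tnf, Il27 (log2 fold change 0.99, adjusted p = 0.028) and Inhba, all higher.

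**Figure D4:**
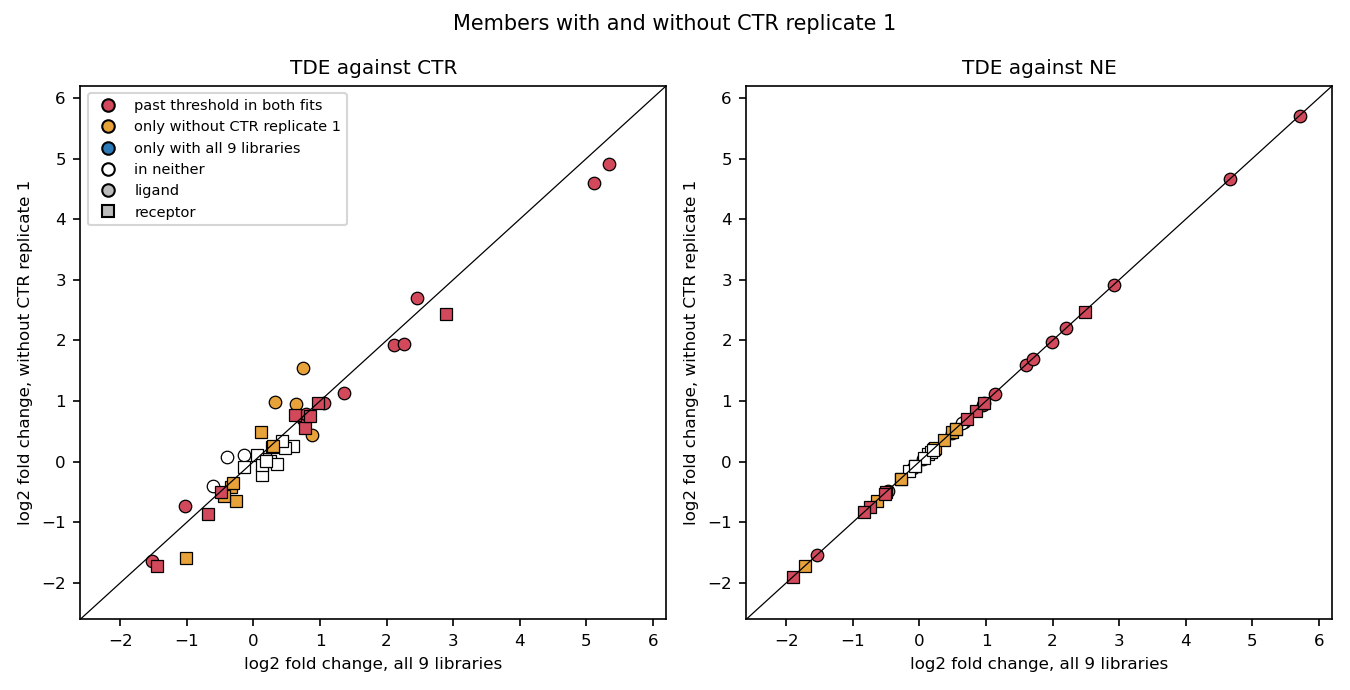
Log2 fold change of each tested member with all 9 libraries (horizontal axis) and without CTR replicate 1 (vertical axis), for TDE against CTR (left) and TDE against NE (right). Circles are ligands, squares receptor chains, colors show in which fit the member passed an adjusted p of 0.05, and the line marks equal values. Ebi3, with 0.74 and 1.55, lies farthest above the line on the left, and the points on the right lie close to the line, the library excluded belonging to neither group.

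The ratio of reads per kilobase was computed within each library for 15 pairs of genes, which were chosen after the values were seen. Some pairs encode partners of one complex, others related ligands or receptors that do not pair with each other. Such a ratio does not depend on the scaling between libraries, but it can carry the trend of CTR replicate 1 with gene length. Il12a to Il12b stood at 0.0039 ± 0.0034 (SD, n = 3) in CTR, 0.0029 ± 0.0018 in NE and 0.0843 ± 0.0149 in TDE libraries, so that p35 transcripts remained far fewer than p40 transcripts in every group. Il1rn to Il1b, antagonist to agonist, stood at 0.352, 0.575 and 0.621 in CTR, 0.798, 0.746 and 0.608 in NE and 0.158, 0.139 and 0.148 in TDE libraries. The antagonist transcript was thus lower relative to Il1b in all TDE libraries, although both rose. Il1r1 to Il1r2, signaling receptor to decoy, stood at 0.0365 ± 0.0298 in CTR, 0.0507 ± 0.0118 in NE and 0.199 ± 0.0188 in TDE libraries. Ifnar2 to Ifnar1 went from 0.747 ± 0.098 in CTR and 0.724 ± 0.122 in NE to 1.08 ± 0.053, and Tnfrsf1b to Tnfrsf1a from 4.06 ± 0.43 and 4.23 ± 0.55 to 5.98 ± 0.16. In the opposite direction, Il7r to Il2rg stood at 0.329 ± 0.064 in CTR, 0.327 ± 0.036 in NE and 0.0748 ± 0.0047 in TDE libraries. Without CTR replicate 1 the CTR means were 0.00586 for Il12a to Il12b, 0.598 for Il1rn to Il1b and 0.0526 for Il1r1 to Il1r2. They were 0.702 for Ifnar2 to Ifnar1, 4.25 for Tnfrsf1b to Tnfrsf1a and 0.293 for Il7r to Il2rg. For these pairs the exact permutation test, two-sided, gave p = 0.1 against CTR and against NE, the smallest value that 3 against 3 libraries allow, which is 0.167 and 0.107 after adjustment over the 15 pairs, so none can pass 0.05 in this design. Csf2ra to Csf2rb was 0.769, 1.46 and 1.21 in CTR, 1.25, 1.18 and 1.53 in NE and 0.777, 0.78 and 0.764 in TDE libraries. Here CTR replicate 1 overlapped with the TDE libraries (exact p = 0.3 against CTR), and only the comparison with NE was free of overlap (exact p = 0.1).

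**Figure D5:**
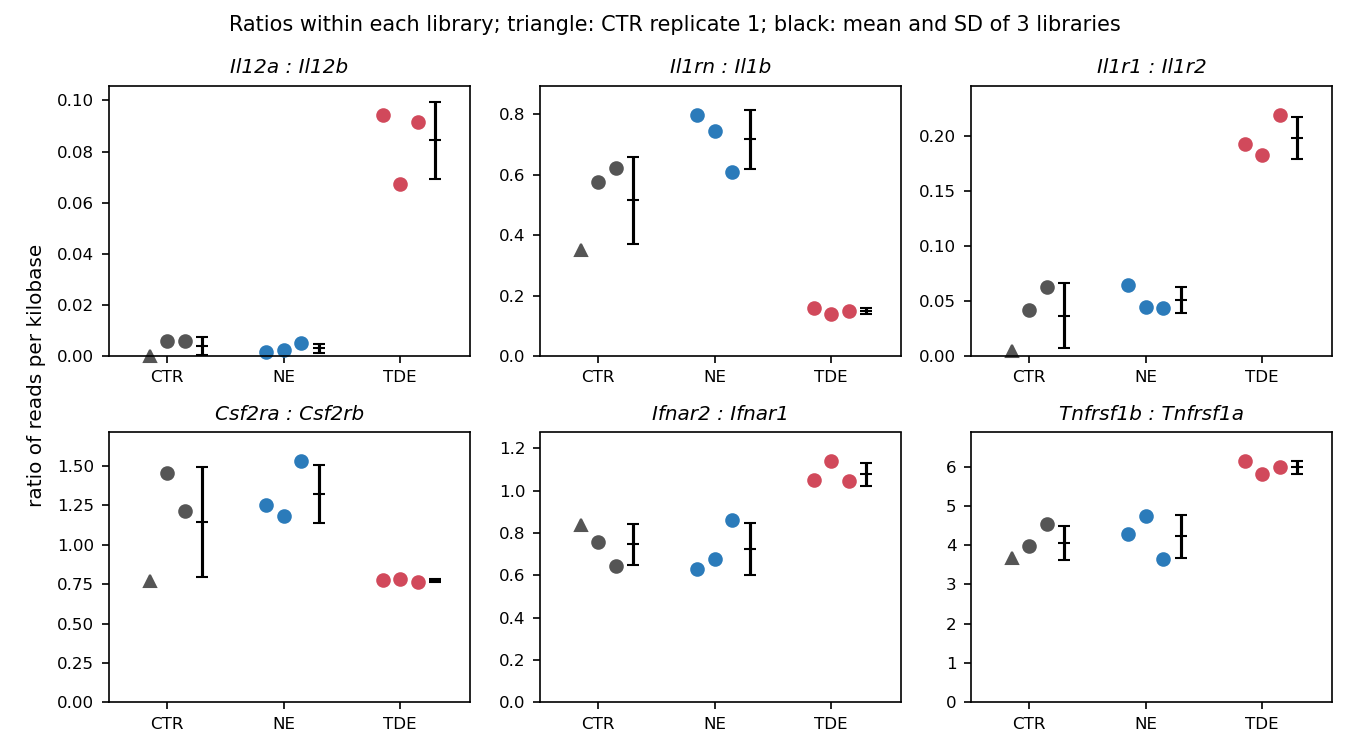
Ratio of reads per kilobase of 2 genes in each library, on linear axes from 0. Points are libraries, triangles CTR replicate 1, and black marks give the mean and SD of the 3 libraries of a group. The TDE libraries are separate from the others for every pair shown except Csf2ra to Csf2rb, where CTR replicate 1 lies at the level of the TDE libraries.

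Levels per gene length were compared as CPM per kilobase of gene (RPKM), with the gene lengths of the table. In CTR libraries Il1b led the ligands at 118 ± 33.8 RPKM (SD, n = 3), followed by Il12b at 59.7 ± 0.66, Ebi3 at 58.9 ± 44.2 and Il1rn at 57.8 ± 2.5 RPKM, and the last 3 did not differ beyond their spread. In TDE libraries Il1b reached 651 ± 5.11 RPKM, and Il12b (103 ± 6.38), Ebi3 (98.3 ± 1.5) and Il1rn (96.5 ± 6.86) again stood close together. Il12a, at 0.232 ± 0.20 RPKM in CTR and 8.64 ± 1.06 RPKM in TDE libraries, remained well under Il12b. Csf1r led the receptor chains with 462 ± 95.3 RPKM in CTR and 525 ± 16.1 RPKM in TDE libraries. Tnfrsf1b came next, with 250 ± 29.0 RPKM in CTR and 449.8 ± 19.9 RPKM in TDE libraries, and Ifngr1 followed with 238 ± 13.3 and 192 ± 5.45 RPKM. Il1r1 was among the least abundant chains in CTR libraries at 0.383 ± 0.26 RPKM, so that its rise started from a low level.

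Between NE-treated and CTR BMDCs no member passed the test. No member was called by edgeR, and 0.0% of the 15028 genes tested were, while 1 member, Tnfsf14, had an unadjusted p under 0.05. DESeq2 and limma voom with sample quality weights called 0 members as well, where 0.04% and 0.12% of all genes were called. No member was called without CTR replicate 1. In the DESeq2 and limma voom fits 3 and 15 members had an unadjusted p under 0.05. The share of all genes with such a p was not computed, so these numbers cannot be read as particular to the members. The log2 fold change of Tnfsf14 was -0.52 ± 0.21 (adjusted p = 0.66). The 95% intervals still allow differences for several genes, from -0.94 to 0.02 for Il1b and from -1.86 to 0.13 for Ebi3, whereas that of Ifnar2 ran from -0.25 to 0.25. A p that misses the threshold does not show that NE-treated and CTR BMDCs were alike in these genes.

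Further genes of the pathway were taken from 4 lists, whose counts in TDE against CTR stand beside 7.57% of all tested genes higher and 9.34% lower, or 16.4% and 18.0% without CTR replicate 1. Of 42 other cytokine genes, 18 were tested, and 5 rose and 3 fell in TDE against CTR. Gdf15, a stress-induced member of the TGF beta superfamily, stood at 6.98 ± 2.94 CPM in CTR and at 79.2 ± 19.8 CPM (SD, n = 3) in TDE libraries (log2 fold change 3.51, adjusted p = 0.00052). Tnfsf9, the ligand of 4-1BB, went from 3.04 ± 1.04 to 16.1 ± 2.75 CPM (2.39, adjusted p = 0.00095), and Tnfsf12 and Tnfsf13, which encode TWEAK and APRIL, had log2 fold changes of -1.45 and -0.85 (adjusted p = 0.032 and 0.024). Of 52 other receptor genes, 44 were tested, and 5 rose and 5 fell, shares near those over all genes. Tnfrsf8 (1.15, adjusted p = 0.0016), Tnfrsf26 (0.71, adjusted p = 0.018) and Tnfrsf14 (0.54, adjusted p = 0.027) rose, and Il27ra (-2.24, adjusted p = 0.00048), Il18r1 (-1.11, adjusted p = 0.0044) and Ifnlr1 (-0.76, adjusted p = 0.015) fell. Il27ra is the receptor chain for IL-27 and Il18r1 the IL-18 binding chain whose partner is Il18rap. Without CTR replicate 1 the counts were 6 higher and 3 lower of 19 cytokine genes and 11 higher and 12 lower of 44 receptor genes.

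Among 35 genes of cytokine signal transduction, all tested, 6 rose and none fell in TDE against CTR by the edgeR test. Irak3, which encodes an inhibitor of IL-1 receptor and Toll-like receptor signaling, went from 58.7 ± 18.4 to 424 ± 8.28 CPM (log2 fold change 2.85, adjusted p = 0.00033). Cish, a STAT5 target that restrains cytokine receptors, went from 5.37 ± 0.51 to 18.2 ± 1.62 CPM (1.76, adjusted p = 0.00034), and Stat5a from 29.5 ± 5.33 to 53.4 ± 1.75 CPM (0.85, adjusted p = 0.0079). The other 3 that rose were Jak3, Tab2 and Irak2. Without CTR replicate 1, 12 of the 35 were higher and 2 lower. Of 21 genes of cytokine processing and mRNA decay, 1 rose and 3 fell. Zc3h12a, which encodes the nuclease Regnase-1 that degrades cytokine mRNAs including that of Il6, went from 41.5 ± 1.75 to 133 ± 3.78 CPM (1.68, adjusted p = 8.7e-05). The 3 that fell, Elane, Prtn3 and Ctsg, encode neutrophil granule proteases that can cleave IL-1 family cytokines, and Elane is also on the neutrophil marker list (CTR 49.6 ± 38.5, TDE 10.9 ± 1.27 CPM). Without CTR replicate 1, 7 of the 21 were higher and 5 lower. The median log2 fold changes of the 4 lists were -0.08, 0.03, 0.21 and -0.08, beside -0.05 for all tested genes.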

How the data were processed

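Extraction used TRIzol, reverse transcription both oligo(dT) and random primers, and sequencing a NovaSeq. The submitters' processing notes name TopHat2 2.1.1, DESeq2 1.24.0 and R 3.3.1. The counting program, genome build and annotation are not given in the sources used here. The authors deposited estimated counts (expected counts) per gene and library without normalization, and 23 members had fractional values. Their group means were not used. Counts were rounded, filtered with filterByExpr, normalized by TMM and fitted with edgeR 4.0.16 (R 4.3.3) to all 9 libraries together (quasi-likelihood F test, Benjamini-Hochberg adjustment, threshold 0.05). The code was tested on simulated data in which all genes shared a dispersion of 0.106 and no library stood apart. Of 200 genes given a change there, 101 were called in TDE against CTR, and 8 others were called falsely. The real libraries depart from this setting, so these numbers do not give the power for the members. A member that did not pass may still differ. Alternatives were DESeq2 1.42.0, limma 3.58.1 voom with quality weights, median-ratio factors, library totals, no filter, at least 10 reads in every library, the 6 libraries of a pair, a replicate block, a log2 fold change of at least 1, and each library left out. Exact tests and plots used scipy 1.17.1 and matplotlib 3.10.9 under Python 3.11.15.

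The members and lists were chosen with earlier results of these data known. Named in full were members with an adjusted p under 0.05 and a log2 fold change of at least 1 in size, and members called against only CTR or only NE. From each pathway list the 3 highest and 3 lowest called genes with at least 5 CPM were eligible. Exon overlaps came from GENCODE vM21. The values of 1 marker gene are not reported here.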

Additional observations from a re-analysis of the deposited data

How the results depend on the processing

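Against CTR, 11 ligands and 8 receptor chains were called, and against NE 12 and 9. The number of ligands stayed within 1.5 times of these values in all alternatives. Leaving out 1 library gave 9 to 15 ligands against CTR, where 7.15% to 34.4% of all genes were called. Against NE it gave 9 to 14, where 6.29% to 40.7% were. The number of receptor chains moved more. Against CTR it was 5 with library totals alone (13.4% of all genes called), 5 without a filter on low counts (6.00%), 4 in the fit to the 6 libraries of the pair (7.93%) and 18 with limma voom with sample quality weights (52.5%). It was 2 when a change of at least 1 on the log2 scale was also asked for (10.5%), and leaving out 1 library gave 4 to 16. The main share was 16.9% against CTR and 13.9% against NE. Against NE the values were 4 (11.9%), 4 (4.95%), 17 (41.9%), 21 (55.3%) and 2 (8.70%), and leaving out 1 library gave 3 to 17. The labels do not say whether the replicate numbers pair the libraries. Correlations of deviations from the group means of same-numbered libraries were -0.03, -0.06 and 0.07 for TDE and CTR, 0.03, -0.04 and -0.07 for TDE and NE, and -0.37, 0.18 and -0.59 for NE and CTR. They gave no sign of pairing, but 3 libraries per group are too few to exclude it. With a replicate block, 9 ligands and 4 receptor chains were called against CTR, 11 and 4 against NE (8.55% and 7.82% of all genes) and none in NE against CTR. With library totals, 13 of the 15 members called against NE were higher, against 15 of 21 with TMM, and the median of all genes in NE against CTR shifted to 0.12. NE against CTR gave 0 members in every alternative.

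No called member changed sign. Members not called with all 9 libraries that did were as follows. Under limma voom, the differences from CTR were 0.042 for Il15, -0.046 for Il1rap and -0.084 for Il10rb, and the difference from NE was -0.0049 for Csf1r. With library totals, Il18 was at -0.0065 against NE. Leaving out 1 library gave, against CTR, -0.30 to 0.10 for Il15, -0.62 to 0.080 for Il18, -0.089 to 0.49 for Il1r2, -0.22 to 0.49 for Il1rap, -0.65 to 0.12 for Il6st, -0.062 to 0.28 for Il10rb and -0.041 to 0.65 for Il15ra, and against NE -0.032 to 0.22 for Il18, -0.24 to 0.0075 for Tnfsf14 and -0.017 to 0.13 for Csf1r. The cause of these changes was not tested. Depth limits Il10 in CTR and NE libraries to a lower bound and Il12a to a wide interval. With at least 10 reads asked of every library, Il10, Il12a, Il1r1, Il12rb1 and Il12rb2 were not tested.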
